A study of Mus musculus with 18 samples.

Results

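The last interval of an erythroid differentiation time course was examined: the 3 arrays hybridised with RNA of cells kept for 30 h in estradiol were set against the 3 arrays of the same cells at 21 h. They make up 6 of the 18 arrays of the series, which hold 3 at each of 0, 3, 7, 14, 21 and 30 h, and they were compared across the 34958 of 45101 probe sets that the platform annotation assigns to 1 mouse gene. The cells were G1E-ER4, a line grown from G1E cells, which are mouse erythroid progenitor-like cells whose own Gata1 gene was disrupted. In G1E-ER4 the missing factor is supplied as GATA1 joined to the ligand-binding part of the estrogen receptor, which 20 nM estradiol switches on. Every array in both groups, and those at 14 h and 0 h that are used as reference points, came from this line, so all groups share the Gata1 disruption and the fusion protein and stand for 1 cell line. No cells kept for the same hours without estradiol were analysed here, so time in culture and length of GATA1 activity cannot be told apart.

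GATA1 is the transcription factor that red cell precursors need to survive and mature. In the final stretch of that program a precursor goes through its last divisions, leaves the cell cycle, stops building ribosomes, condenses its nucleus, fills with hemoglobin and clears mitochondria and other organelles through autophagy, lysosomes and ubiquitin enzymes. Factors of the E2F family switch on genes for DNA synthesis when a cell enters S phase, and members of the RB family and inhibitors of cyclin-dependent kinases hold them back.

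Levels are the deposited log2 values, so a difference of 1 is a 2-fold change, and SE is the standard error of a difference. A gene was called changed at a limma adjusted p under 0.05 over the 12720 genes tested of the 18194 on the array. Each time's 3 arrays carry the label of biological replicates, with no word on separate cultures, and the p-values reflect only their spread, which may be technical. Arrays correlated across probe sets at a mean r of 0.995 within 21 h and 0.997 within 30 h, and at 0.991 between the times. Of 10 erythroid markers on the array, 9 lay above the arrays' 60th percentile (5.20), among them Klf1, Tfrc, Gata1, Epor and Slc4a1, and the probe set named Hba-a1 stayed between 1.88 and 2.63. The gap between 3' and 5' control probe sets, a sign of RNA integrity, ranged from 1.89 to 2.36 at 21 h and from 2.08 to 2.31 at 30 h for Actb. For 18S ribosomal RNA it ranged from 0.563 to 0.754 at 21 h and from 0.760 to 1.01 at 30 h, and the part of this in the results was not tested. In RNA from whole cultures, fewer cells of a type and less RNA per cell cannot be told apart.

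Between 21 h and 30 h, 5150 genes changed (40.5% of those tested), 2286 upward (18%) and 2864 downward (22.5%). The upward calls had a median size of 0.40 and the downward ones of -0.50, and the median over all genes was 0.01. Changes of at least 2-fold were fewer: 96 genes rose that far (0.755%) and 309 fell (2.43%), and this balance turned to 196 rises and 174 falls under the scaling to hybridisation controls described next. Changes of at least 4-fold were seen in 6 genes that rose and 10 that fell. The arrays of the 2 times did not overlap for 5927 genes (46.6%). The direction of the whole set depended on scale. When each array was set to its bacterial and phage hybridisation controls, the median gene moved to 0.20 and the calls became 1680 higher and 753 lower. Then 69.1% of calls were upward in place of 44.4%. The mean of these controls itself varied within a time, from 11.66 to 12.20 on the 21 h arrays and from 11.57 to 11.89 on the 30 h arrays. The part of this spread in the moved median and counts was not tested. Of 303 genes followed through the alternatives, 54 lost their call under this scaling and 1 changed sign. Every change below is therefore relative to the middle of all genes, and each list's counts of rises and falls under that scaling are given beside it as control scaling. List counts are to be read against the shares of all genes, 18% higher and 22.5% lower. With control scaling the matching counts over all genes are 1680 higher and 753 lower of 12720.

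**Figure D1:**
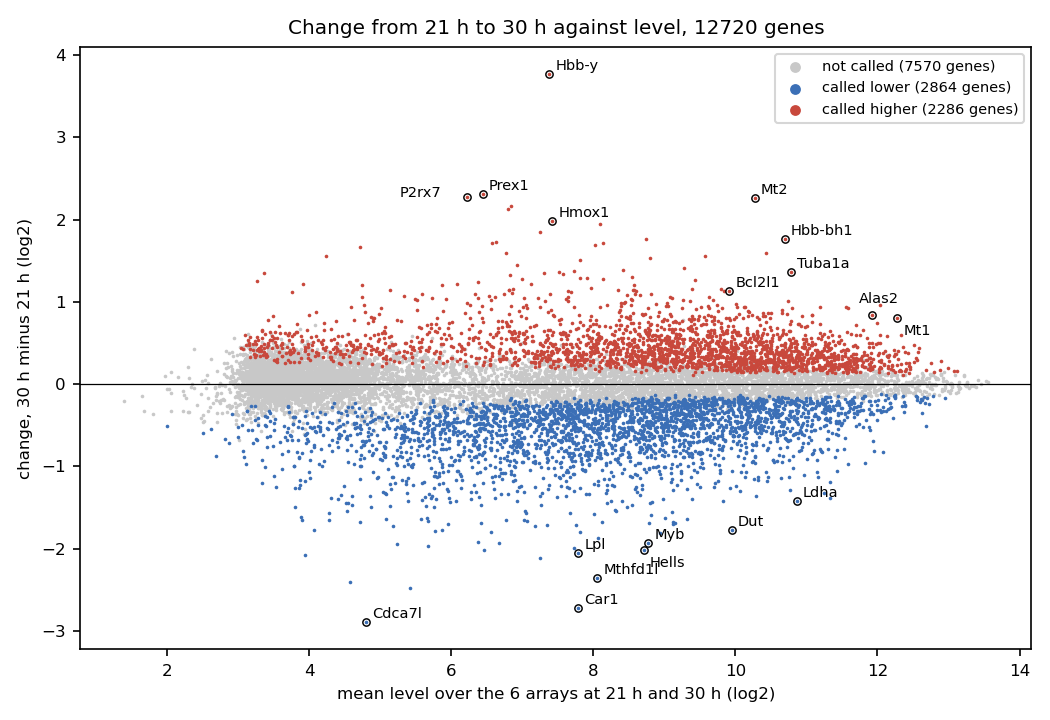
Change from 21 h to 30 h (log2, vertical axis) against the mean level over the 6 arrays (log2, horizontal axis) for the 12720 genes tested, coloured by call at adjusted p under 0.05. Hbb-y lies highest at 3.77 and Cdca7l lowest at -2.89, and there are 309 falls and 96 rises of at least 2-fold on the deposited scale, against 174 and 196 with hybridisation-control scaling.

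The 12 largest rises and 12 largest falls were taken only from called genes whose 2 times did not overlap. For these genes the lack of overlap, here and below, is part of the choice and not a finding. The largest rise belonged to Hbb-y, the embryonic beta-like globin chain. It read 5.59, 5.62 and 5.28 on the 3 arrays at 21 h and 9.33, 9.25 and 9.21 at 30 h. The times did not overlap, and the change was 3.77 (SE 0.35, adjusted p = 4.31e-07), or 13.6-fold. Its other probe sets rose as well, by 3.71 and 1.55. Next came Prex1, a guanine nucleotide exchange factor for Rac, which read 5.41, 4.89 and 5.56 on the 3 arrays at 21 h and 7.82, 7.35 and 7.63 at 30 h. P2rx7, an ATP-gated ion channel, read 5.23, 5.10 and 4.91 on the 3 arrays at 21 h and 7.32, 7.32 and 7.44 at 30 h. Every 30 h array lay above every 21 h array for both, with changes of 2.31 (SE 0.19, adjusted p = 1.42e-07) and 2.28 (SE 0.088, adjusted p = 5.84e-11). The other genes among the 12 largest rises were Mt2, a metallothionein, at 2.26, Tmem150a at 2.17, the microRNA host transcript Mir22hg at 2.13, Hmox1, heme oxygenase, at 1.98, Tcp11l2 at 1.95, Sat2 at 1.85, Cpeb2, an RNA-binding protein, at 1.76, the embryonic globin Hbb-bh1 at 1.76 and Tmem140 at 1.73.

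The largest fall was that of Cdca7l, a MYC-binding relative of the cell cycle gene Cdca7. It read 6.50, 6.11 and 6.14 on the 3 arrays at 21 h and 3.13, 3.31 and 3.63 at 30 h. Car1, a carbonic anhydrase abundant in red cells, read 9.07, 9.27 and 9.07 on the 3 arrays at 21 h and 6.36, 6.36 and 6.53 at 30 h. Neither gene's times overlapped, and the changes were -2.89 (SE 0.12, adjusted p = 1.11e-10) and -2.72 (SE 0.066, adjusted p = 7.7e-13). Mthfd1l, a mitochondrial enzyme of folate metabolism, read 9.48, 9.14 and 9.09 on the 3 arrays at 21 h and 6.78, 6.85 and 7.0 at 30 h. It fell by 2.36 (adjusted p = 4.31e-11), with no overlap. Hells, a chromatin remodeller of the SNF2 family, read 9.68, 9.72 and 9.76 on the 3 arrays at 21 h and 7.68, 7.63 and 7.78 at 30 h. It fell by 2.02 with the arrays of each time within a narrow band, and Cdca7 itself fell by 2.11. Hells, Cdca7, Cdca7l and Dna2, a nuclease and helicase of DNA replication (-2.02), all act on chromatin or DNA. The remaining large falls were those of the dynein chain gene Dnah11 (-2.48), Xkr5 (-2.40), lipoprotein lipase Lpl (-2.06), Septin4 (-2.0), the transcription factor Klf10 (-1.97) and the adhesion receptor Adgrl1 (-1.94).

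**Figure D2:**
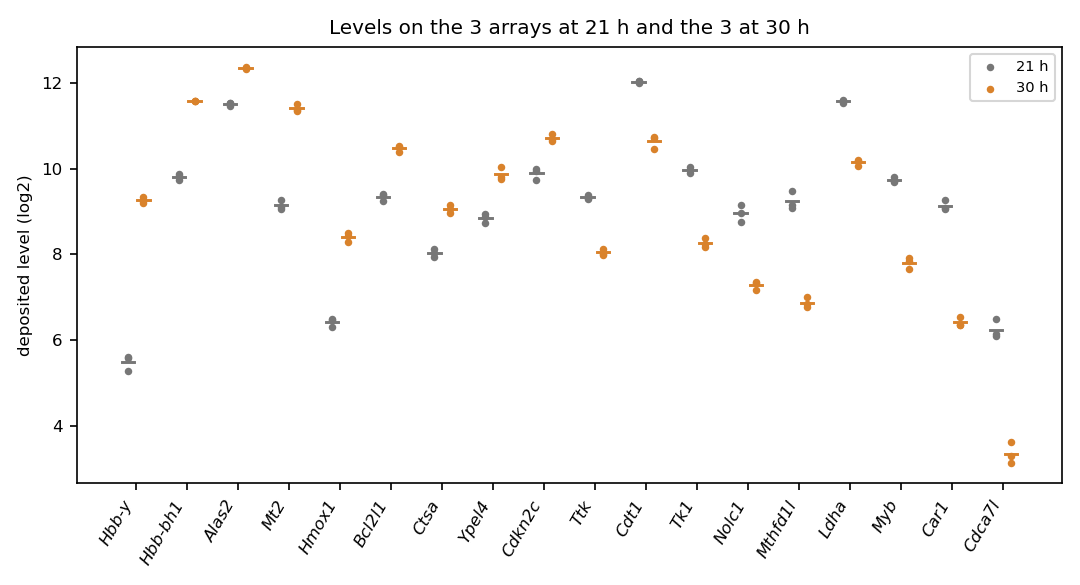
Deposited log2 levels (vertical axis) of 18 genes on the 3 arrays at 21 h (grey) and the 3 at 30 h (orange), with a bar at each mean. For each gene shown the points of one time lie clear of those of the other, from Hbb-y with the widest upward gap to Cdca7l with the widest downward gap.

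Genes for DNA synthesis fell as a block. Of 50 replication genes listed, 48 were tested and all 48 were called lower, against 22.5% of all genes, with a median change of -0.99 and 24 of them down by at least 2-fold. With hybridisation-control scaling the count of falls was 37 of 48 and the median -0.80. The changes ranged from -1.78 to -0.23. Dut, which clears dUTP so that it is not built into DNA, read 10.64, 10.82 and 11.04 on the 3 arrays at 21 h and 8.89, 9.25 and 9.03 at 30 h. It fell by 1.78 (SE 0.11, adjusted p = 5.14e-09) with no overlap. Tk1, thymidine kinase, read 9.91, 9.97 and 10.04 on the 3 arrays at 21 h and 8.17, 8.24 and 8.39 at 30 h, a fall of 1.71 (SE 0.068, adjusted p = 8.21e-11). Pold2, a subunit of DNA polymerase delta, fell by 1.73, Chaf1b, which places histones on new DNA, by 1.71, and Timeless, which steadies the replication fork, by 1.69. The origin licensing factor Cdt1 read 12.04, 12.04 and 11.99 on the 3 arrays at 21 h and 10.47, 10.73 and 10.72 at 30 h. Its times did not overlap and it fell by 1.38, while the helicase subunit Mcm3 fell by 1.29 and the sliding clamp Pcna by 0.82. Rrm2, a subunit of ribonucleotide reductase, changed less, by -0.34 (adjusted p = 0.00035).

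The windows around the start sites of the replication genes held E2F letters more often than other windows did, as a description of sequence and not of binding. Each RefSeq window (GRCm38.p6) runs from 250 bases before a gene's start to 50 after it. Motifs were searched on both strands. The E2F letters TTTCCCGC, TTTGGCGC, TTTCGCGC or TTTGCCGC stood in 16 of 48 windows of 39 replication genes (33.3%), against 3.79% of 12969 windows of tested genes and 2.26% of all 32851 windows. In windows of G1 regulators the share was 26.7%, and in those of mitosis genes 6.06%. Windows of Cdt1 and Mcm3 are shown because both genes fell by more than 2-fold and carry these letters, marked by capitals. The Cdt1 window lies at chr8:122567765-122568064, plus strand and the Mcm3 window at chr1:20820263-20820562, minus strand.
Cdt1: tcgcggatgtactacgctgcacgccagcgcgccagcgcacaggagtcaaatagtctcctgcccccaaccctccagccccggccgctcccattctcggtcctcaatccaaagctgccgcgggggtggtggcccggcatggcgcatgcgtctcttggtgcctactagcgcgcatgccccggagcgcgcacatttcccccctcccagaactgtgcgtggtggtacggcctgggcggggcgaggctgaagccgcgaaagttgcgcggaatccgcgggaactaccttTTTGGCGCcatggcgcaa
Mcm3: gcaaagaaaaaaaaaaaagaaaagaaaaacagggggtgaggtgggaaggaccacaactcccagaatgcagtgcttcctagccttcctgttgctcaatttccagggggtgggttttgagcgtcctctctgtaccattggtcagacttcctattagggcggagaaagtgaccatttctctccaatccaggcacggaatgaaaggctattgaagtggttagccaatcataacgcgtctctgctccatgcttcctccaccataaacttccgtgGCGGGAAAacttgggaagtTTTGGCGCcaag
A match is a description of these letters only.

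The DNA damage response and repair genes fell with them. Of 33 listed, 29 were tested, 26 were called lower (22 with control scaling) and 0 higher, with a median of -0.86. The nuclease Exo1 fell by 1.87 (adjusted p = 1.42e-10), the checkpoint kinase Chek1 by 1.68, the uracil glycosylase Ung by 1.64, Rad54b by 1.57 and the Fanconi anemia gene Fancb by 1.54. Chek1 read 10.04, 9.92 and 9.92 on the 3 arrays at 21 h and 8.26, 8.23 and 8.34 at 30 h. Those arrays formed separate groups.

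Genes of G2 and mitosis also fell, from a median level that at 21 h stood 0.46 above that at 0 h. Of 38 tested, 37 were called lower with a median of -0.66, and only Pttg1, securin, was not called (-0.11, adjusted p = 0.1745). With control scaling 16 were called lower. The spindle checkpoint kinase Ttk read 9.28, 9.32 and 9.38 on the 3 arrays at 21 h and 8.01, 7.99 and 8.14 at 30 h. It fell by 1.28 (SE 0.068, adjusted p = 1.35e-09), and no 30 h array reached the 21 h arrays. The kinase Aurkb fell by 1.09, the kinesin Kif20a by 1.07, the checkpoint protein Bub1b by 1.06 and Foxm1, the transcription factor that drives many genes of this phase, by 1.07. Cdk1 fell by 0.82 and the proliferation marker Mki67 by 0.66. Of the centromere and kinetochore genes, 24 of 27 tested fell and 1 rose, with a median of -0.59 and 10 falls under control scaling. Cenpn fell by 1.19 and Nsl1 by 1.0.

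The windows of the mitosis genes differed in their letters from those of the replication genes. The letters TTTGAA, the core of the cell cycle homology region known from late cell cycle promoters, stood in 24 of 33 windows of 30 mitosis genes (72.7%), against 12.1% of the windows of tested genes and 12.5% of those of replication genes. The letters CCAAT stood in 78.8% of the mitosis windows, 60.4% of the replication windows and 37.7% of the windows of tested genes. The windows of Ttk (chr9:83834439-83834738, plus strand) and Cdk1 (chr10:69352863-69353162, minus strand) are shown with TTTGAA or its reverse complement in capitals.
Ttk: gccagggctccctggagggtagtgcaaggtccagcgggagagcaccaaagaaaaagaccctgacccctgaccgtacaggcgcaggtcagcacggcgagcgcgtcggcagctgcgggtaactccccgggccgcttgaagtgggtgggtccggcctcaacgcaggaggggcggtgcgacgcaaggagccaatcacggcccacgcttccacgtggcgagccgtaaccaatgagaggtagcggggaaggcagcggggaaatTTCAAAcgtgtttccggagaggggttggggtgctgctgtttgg
Cdk1: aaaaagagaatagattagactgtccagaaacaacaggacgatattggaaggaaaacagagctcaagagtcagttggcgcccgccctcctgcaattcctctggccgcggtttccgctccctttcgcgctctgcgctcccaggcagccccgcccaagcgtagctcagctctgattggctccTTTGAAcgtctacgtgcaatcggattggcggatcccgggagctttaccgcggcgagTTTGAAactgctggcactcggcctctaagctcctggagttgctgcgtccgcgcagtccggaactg
Both genes fell in this interval, as given above.

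Most regulators of entry into S phase fell. Of 28 tested, 19 fell and 5 rose, with a median of -0.59, and under control scaling 10 fell and 3 rose. Skp2, the ubiquitin ligase subunit that marks p27 for destruction, read 7.41, 7.34 and 7.05 on the 3 arrays at 21 h and 5.59, 5.63 and 5.52 at 30 h, a fall of 1.69 (adjusted p = 2.19e-10) with no overlap. The activator E2f1 fell by 1.42, the repressors E2f7 and E2f8 by 1.34 and 1.13, and the phosphatase Cdc25a, which activates cyclin-dependent kinases, by 1.29. The 5 that rose were the kinase inhibitors Cdkn2c (0.82), Cdkn1a (0.47) and Cdkn1b (0.44) and the pocket proteins Rbl2 (0.29) and Rb1 (0.24). Cdkn2c, p18, read 9.95, 9.995 and 9.73 on the 3 arrays at 21 h and 10.69, 10.80 and 10.65 at 30 h. Its arrays did not overlap. The other pocket protein, Rbl1, also a brake on E2F, fell by 1.08. Cyclin D3, Ccnd3, differed by -0.043 (adjusted p = 0.7010).

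Many genes stayed near their 0 h level through 21 h and were then called changed. A gene was counted as late in onset where its mean stayed within 0.5 of its 0 h level at 3, 7, 14 and 21 h and it was then called between 21 h and 30 h. The rule did not ask that the level at 30 h differ from that at 0 h, so a return to the 0 h level counts too. There were 2454 such genes of the 12720 tested, 1025 rising and 1429 falling. Of this fixed set, 809 were called with control scaling, and the rule on earlier times was not applied anew. The 8 with the largest change above the arrays' 60th percentile all fell: Tcf19 by 1.81, Dut by 1.78, Ctnnal1 by 1.78, Tonsl, a replication fork repair factor, by 1.71, Chaf1b by 1.71, Tk1 by 1.71, Timeless by 1.69 and Aunip by 1.66. Tcf19 averaged 9.43 at 0 h, 9.88 at 14 h and 9.84 at 21 h, and then 8.03 at 30 h. Among the replication genes tested, 40 of 48 had stayed within 0.5 of 0 h through 21 h, as had 20 of 38 mitosis genes and 10 of 42 ribosome biogenesis genes. The matching share over all genes was not counted. Lists with small median changes in the last interval held such members too, 48 of 51 respiratory chain genes and 28 of 29 cytosolic ribosomal proteins. A level near that at 0 h through 21 h was therefore not particular to replication genes. The median replication gene stood 0.03 above its 0 h level at 21 h and 0.89 below it at 30 h, which the plot of list medians over time shows as a line near 0 that drops after 21 h.

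**Figure D3:**
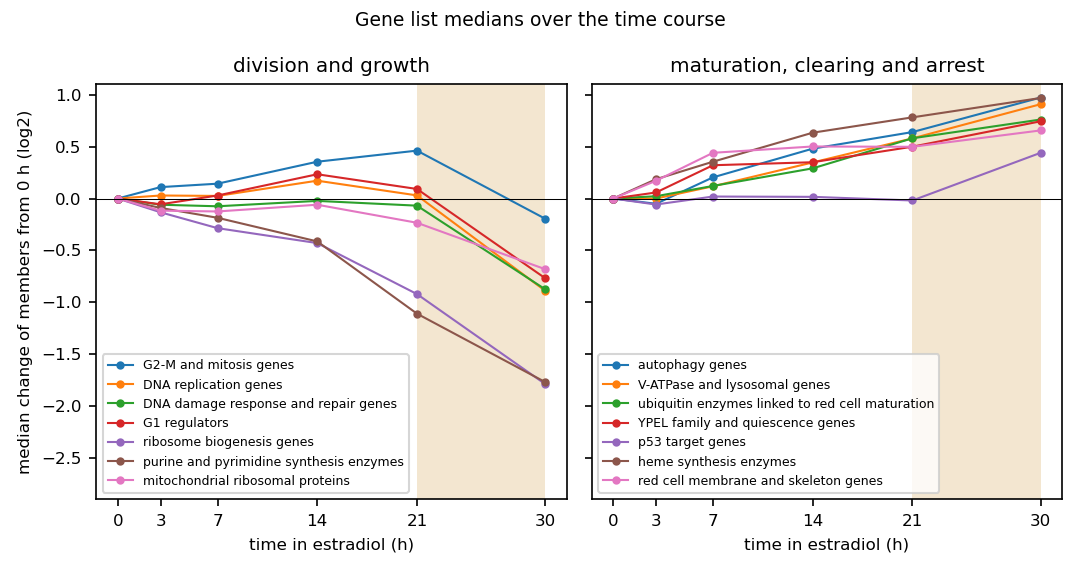
Median change of list members from their 0 h level (log2, vertical axis) at each time in estradiol (h, horizontal axis), with the interval from 21 h to 30 h shaded. The replication median goes from 0.03 at 21 h to -0.89 at 30 h, and the ribosome biogenesis median, already at -0.92 at 21 h, goes on to -1.79.

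Ribosome building had been falling before 21 h and went on falling. Of 42 ribosome biogenesis genes tested, 38 were called lower and 0 higher, with a median of -0.82, and 26 were called lower with control scaling. The nucleolar chaperone Nolc1 read 8.77, 8.96 and 9.16 on the 3 arrays at 21 h and 7.32, 7.18 and 7.35 at 30 h. It fell by 1.68 (SE 0.11, adjusted p = 8.1e-09), clear of overlap. Nop58 and Gar1, core proteins of small nucleolar ribonucleoproteins, fell by 1.59 and 1.46, and the processing factors Rrp1b and Rrp9 by 1.17 and 1.08. The abundant nucleolar proteins Fbl, Ncl and Npm1 fell by 0.83, 0.60 and 0.31. Among host transcripts of small nucleolar RNAs, of which these were picked because they fell and the rest were not counted, Snhg16 fell by 1.49, Snhg5 by 1.30, Snhg4 by 1.27 and Snhg17 by 1.26, while Gas5, picked as another such host, differed by -0.072 (adjusted p = 0.2397).

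The proteins of the finished ribosome moved little. Of 29 cytosolic ribosomal protein genes tested, 4 were called lower and 0 higher, with a median of -0.07 that became 0.12, with 0 calls, under control scaling. The largest changes were in Rpl14 (-0.64) and Rps6 (-0.63). Mitochondrial ribosomal proteins fell more often, 44 of 62 with 2 higher and a median of -0.36, and 6 were called lower with control scaling. Mrpl12 fell by 0.96 and Mrps28 by 0.90. Among cytosolic tRNA synthetases, which load amino acids onto tRNAs, 13 of 19 fell and 0 rose (median -0.42, 3 falls and 0 rises with control scaling), led by Vars at -0.97 and Yars at -0.81. Translation initiation and elongation factors gave 17 falls and 1 rise of 32, with Eif2b1 at -0.75, and 1 fall and 1 rise with control scaling.

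Enzymes that make nucleotides were among the strongest fallers. Of 23 purine and pyrimidine synthesis enzymes tested, 20 were called lower and 0 higher, with a median of -0.84, and 13 were called lower with control scaling. Besides Mthfd1l, the purine enzyme Atic read 9.03, 9.07 and 9.16 on the 3 arrays at 21 h and 7.51, 7.50 and 7.63 at 30 h. It fell by 1.54 (adjusted p = 5.07e-11), without overlap. Ctps, which makes CTP, fell by 1.44, Mthfd1 by 1.13 and Dhodh, a pyrimidine enzyme of the mitochondrial membrane, by 1.11. Polyamine genes, chosen after their values were seen, split. The synthesis enzymes Srm and Odc1 fell by 1.69 and 0.46, while Sat1, which acetylates polyamines for breakdown, rose by 0.66. Sat2, a paralog of Sat1 that is not counted here as a polyamine gene, rose by 1.85.

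**Figure D4:**
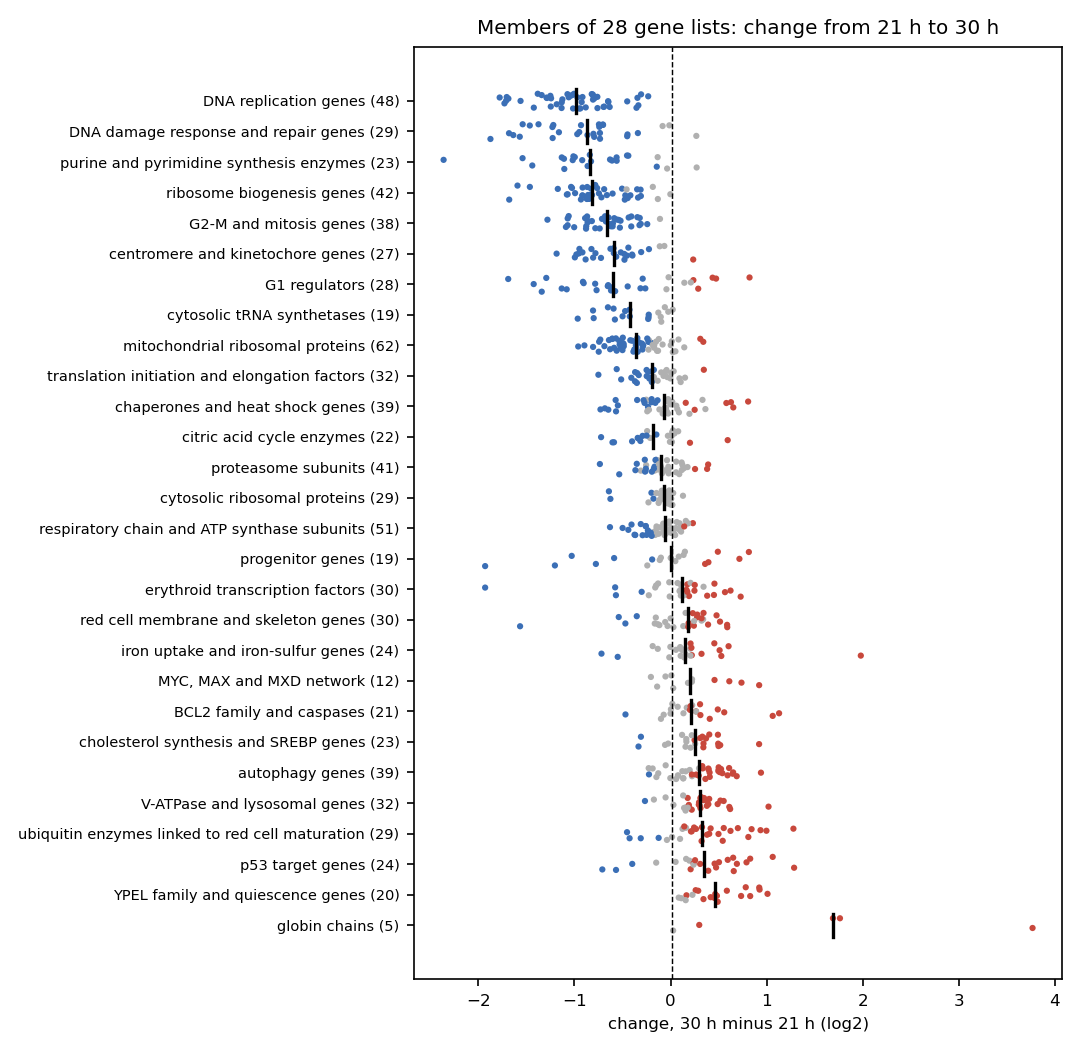
Change from 21 h to 30 h (log2, horizontal axis) of each tested member of 28 gene lists, with the number tested in brackets, coloured red where called higher, blue where called lower and grey where not called. Black bars are list medians and the dashed line is the median of all genes at 0.01; the replication median lies at -0.99 and that of YPEL family and quiescence genes at 0.46.

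Hemoglobin genes moved by developmental type. Of 5 globin chains tested of 11 listed, 4 rose. The embryonic chains Hbb-y, Hbb-bh1 and Hba-x rose by 3.77, 1.76 and 1.69. Hbb-bh1 read 9.88, 9.82 and 9.74 on the 3 arrays at 21 h and 11.57, 11.58 and 11.58 at 30 h. The 30 h arrays were nearly identical and lay well above those at 21 h. Hba-x, the embryonic alpha-like chain, read 7.22, 7.13 and 7.17 on the 3 arrays at 21 h and 8.90, 8.82 and 8.88 at 30 h, again with no overlap. The adult alpha chain probe set Hba-a2 rose by 0.30 (adjusted p = 0.0305) with its times overlapping, and the adult beta chain Hbb-b2 differed by 0.027 (adjusted p = 0.8079) at a level of 11.67. Adult globin genes have near-identical copies that a probe set may not tell apart, so these values are uncertain. With control scaling 3 of the 5 were called higher.

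The Hbb-y window (chr7:103853158-103853457, minus strand) is shown because the gene rose most. Capitals mark the only match there to the GATA letters searched, which are AGATA or TGATA with A or G after it, on either strand.
Hbb-y: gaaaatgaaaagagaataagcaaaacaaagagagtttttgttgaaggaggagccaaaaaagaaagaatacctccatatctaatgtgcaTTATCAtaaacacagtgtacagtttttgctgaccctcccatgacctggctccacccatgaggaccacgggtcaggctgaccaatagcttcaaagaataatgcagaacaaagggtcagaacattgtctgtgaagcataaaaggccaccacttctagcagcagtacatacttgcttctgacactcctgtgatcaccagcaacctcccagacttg
These letters stood in 53.6% of 28 windows of red cell membrane genes and in 19.7% of the windows of tested genes.

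Both forms of the enzyme that starts heme synthesis changed, in opposite directions. Alas2, the red cell form, read 11.53, 11.53 and 11.45 on the 3 arrays at 21 h and 12.31, 12.33 and 12.37 at 30 h. It rose by 0.84 (SE 0.082, adjusted p = 7.12e-07), with the times apart. Alas1, the form used in other tissues, fell by 0.48 (adjusted p = 0.01). Fech, which inserts the iron, rose by 0.27, Uros fell by 0.34, and the other 4 of 8 tested enzymes were not called. With control scaling 1 was called higher and 0 lower.

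Genes that handle iron and heme rose more often than they fell: of 24 tested, 9 rose and 2 fell (5 and 1 with control scaling). Hmox1, which breaks heme down, read 6.49, 6.32 and 6.48 on the 3 arrays at 21 h and 8.50, 8.43 and 8.30 at 30 h. The times lay far apart, with a change of 1.98 (SE 0.096, adjusted p = 5.49e-10), and its means before had been 6.62 at 0 h, 5.42 at 3 h and 6.44 at 14 h. The iron exporter Slc40a1, ferroportin, rose by 0.51, Blvrb, which reduces biliverdin, by 0.32, and Fam210b, a mitochondrial protein of heme-making cells, by 0.60. The iron importer Slc11a2 fell by 0.72 and Slc25a38, a mitochondrial glycine carrier for heme synthesis, by 0.55. The transferrin receptor Tfrc differed by -0.0023 (adjusted p = 0.9763) at 12.81.

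Red cell membrane genes rose more often than they fell. Of 30 membrane and skeleton genes tested, 13 rose and 4 fell, with a median of 0.18, and 7 rose and 1 fell with control scaling. Slc4a1, the band 3 anion exchanger, read 11.83, 11.79 and 11.88 on the 3 arrays at 21 h and 12.45, 12.40 and 12.42 at 30 h. It rose by 0.59 (adjusted p = 2.7e-05), with no overlap, as did Art4 by 0.59, Mpp1 by 0.51 and the spectrin beta chain Sptb by 0.39. The urea transporter Slc14a1 fell by 1.57 and the adhesion receptor Cd44, which red cell precursors lose, by 0.54.

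Among 30 erythroid transcription factor genes tested, 12 rose and 4 fell (6 and 1 with control scaling). Myb, which keeps precursors dividing, read 9.72, 9.81 and 9.68 on the 3 arrays at 21 h and 7.67, 7.84 and 7.91 at 30 h. It fell by 1.93 (SE 0.070, adjusted p = 3.44e-11), and its times were far apart. Bcl11a, a repressor of embryonic globin genes, fell by 0.57. Klf6 rose by 0.73, the small MAF protein Mafg by 0.62, its partner Nfe2 by 0.45 and the heme-sensing repressor Bach1 by 0.46. Gata1, whose transcript was not told apart here from that of the fusion, rose by 0.25 (adjusted p = 0.0228), and Klf1 differed by -0.13 (adjusted p = 0.0557).

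Metallothioneins are small proteins that bind zinc and copper, and both that are found in most tissues rose. Mt2 read 9.10, 9.05 and 9.28 on the 3 arrays at 21 h and 11.51, 11.37 and 11.33 at 30 h. The times were far apart and the change was 2.26 (SE 0.069, adjusted p = 8.26e-12), after a decline from 12.45 at 0 h to 9.96 at 14 h and 9.14 at 21 h. Mt1 read 11.85, 11.84 and 11.94 on the 3 arrays at 21 h and 12.72, 12.67 and 12.65 at 30 h. It rose by 0.80 (adjusted p = 1.21e-08) without overlap. Slc30a1, the zinc exporter of the cell surface, read 10.35, 10.29 and 10.27 on the 3 arrays at 21 h and 11.17, 11.15 and 11.15 at 30 h. It rose by 0.85 (adjusted p = 1.73e-09), again clear of overlap. The zinc importers Slc39a10 and Slc39a11 fell by 0.74 and 0.84. Of the 23 metallothionein and zinc transporter genes tested, 8 rose and 6 fell, and 6 rose and 2 fell with control scaling.

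The windows of Mt2 (chr8:94172368-94172667, plus strand) and Slc30a1 (chr1:191906531-191906830, plus strand) are shown with metal response letters, TGCACNC or TGCGCNC or their reverse complements, in capitals.
Mt2: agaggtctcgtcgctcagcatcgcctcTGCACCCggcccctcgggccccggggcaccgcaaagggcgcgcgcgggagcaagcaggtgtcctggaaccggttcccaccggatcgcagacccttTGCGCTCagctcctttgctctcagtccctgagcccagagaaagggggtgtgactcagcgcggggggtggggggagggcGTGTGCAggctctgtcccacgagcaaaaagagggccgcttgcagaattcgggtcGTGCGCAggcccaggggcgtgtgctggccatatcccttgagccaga
Slc30a1: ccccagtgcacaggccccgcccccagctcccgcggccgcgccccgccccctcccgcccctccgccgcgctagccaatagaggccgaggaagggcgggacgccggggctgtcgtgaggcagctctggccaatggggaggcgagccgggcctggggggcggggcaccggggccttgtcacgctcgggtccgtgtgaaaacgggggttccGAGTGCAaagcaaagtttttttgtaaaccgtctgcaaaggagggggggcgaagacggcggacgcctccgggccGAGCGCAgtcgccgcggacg
The Mt2 window held 4 matches and the Slc30a1 window 2. These short letters are common: 56.5% of the 23 windows of this list held them, 54.2% of those of replication genes and 34.6% of those of tested genes.

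Of 21 peroxide and glutathione defence genes tested, 9 rose and 4 fell (5 and 2 with control scaling). Srxn1 and Gclm, classic targets of the oxidant sensor NRF2, rose by 0.67 and 0.55, and Nqo1 by 0.38. The glutathione transferases Gsta4 and Gstp1 fell by 1.93 and 0.88. Gstt1 and Gstt2, theta-class transferases picked because they rose, rose by 1.14 and 1.02, and the rest of that class was not counted. The antioxidant letters TGACNNNGC stood in 16.7% of the windows of this list and 14.4% of those of tested genes.

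Most genes of autophagy, by which the cell digests its own contents, rose. Of 39 tested, 22 were called higher and 1 lower, against 18% higher over all genes, with a median of 0.30, and 18 were called higher with control scaling. Calcoco1, a selective autophagy receptor, read 9.59, 9.62 and 9.77 on the 3 arrays at 21 h and 10.66, 10.59 and 10.54 at 30 h. It rose by 0.94 (SE 0.085, adjusted p = 3.14e-07), and its times did not overlap. The kinase Ulk1, which starts the process, rose by 0.69, Pink1, which marks damaged mitochondria, by 0.65, Atg14 by 0.65, Map1lc3a by 0.61 and Map1lc3b by 0.39.

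Most lysosomal genes rose too. Of 32 V-ATPase and lysosomal genes tested, 23 were called higher and 1 lower with a median of 0.31, and 12 were called higher with control scaling. Ctsa, the protective protein of lysosomal enzymes, read 8.04, 7.95 and 8.12 on the 3 arrays at 21 h and 9.16, 8.96 and 9.05 at 30 h. It rose by 1.02 (adjusted p = 1.69e-07), with no overlap. The proteases Ctsd and Ctsl rose by 0.62 and 0.55, the ceramidase Asah1 by 0.61 and the proton pump subunit Atp6v0d1 by 0.52. The letters CACGTG, the E-box that factors of the TFEB and MYC families are known to bind, stood in 12 of 27 windows of lysosomal genes (44.4%), in 12.5% of those of autophagy genes, in 17.1% of those of ribosome biogenesis genes and in 9.58% of those of tested genes. The Ctsa window (chr2:164833523-164833822, plus strand) is shown with CACGTG in capitals, as the member that rose most.
Ctsa: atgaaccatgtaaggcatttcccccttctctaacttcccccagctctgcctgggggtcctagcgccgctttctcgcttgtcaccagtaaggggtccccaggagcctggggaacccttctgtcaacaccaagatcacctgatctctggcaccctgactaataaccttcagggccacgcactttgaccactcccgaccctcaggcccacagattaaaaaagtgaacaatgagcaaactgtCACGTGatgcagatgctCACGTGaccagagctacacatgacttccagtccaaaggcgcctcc
A second start of this gene had a window with no such letters.

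Ubiquitin enzymes linked to red cell maturation followed the same direction: 20 of 29 tested rose and 4 fell, with a median of 0.32, and 13 rose and 0 fell with control scaling. Ube2o, a ubiquitin enzyme that remodels the proteins of maturing red cells, read 6.39, 6.29 and 6.40 on the 3 arrays at 21 h and 7.79, 7.37 and 7.75 at 30 h. It rose by 1.28 (SE 0.11, adjusted p = 1.28e-07), its times apart. Ube2l6 rose by 1.0, Rnf11 by 0.94, Ube2h by 0.84 and Fbxo30 by 0.81. Subunits of the proteasome did not share this: 3 of 41 rose and 14 fell, with a median of -0.10, and with control scaling 2 rose and 1 fell with a median of 0.09. Psmb10 fell by 0.74 and Psme4 rose by 0.38.

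Most members of the list of YPEL family and quiescence genes rose. Of 20 YPEL family and quiescence genes tested, 16 were called higher and 0 lower, with a median of 0.46, and 13 were called higher with control scaling. Ypel4 read 8.95, 8.74 and 8.88 on the 3 arrays at 21 h and 9.76, 9.81 and 10.03 at 30 h. It rose by 1.01 (adjusted p = 0.000124) without overlap, Ypel2 by 0.93, Ypel3 by 0.73 and Ypel5 by 0.49. Cited2, a transcription cofactor, rose by 0.92, Ccng2, a cyclin linked to arrest, by 0.83 and Sertad1 by 0.78. The forkhead letters TGTTTAC stood in 13.6% of 22 windows of this list, in 14.3% of 28 windows of the centromere list, most of whose genes fell, and in 2.61% of those of tested genes. In the MYC, MAX and MXD network, 4 of 12 tested rose and 0 fell on either scale. The 4 are antagonists of MYC, with rises of 0.92 for Mxd4, 0.74 for Mnt and 0.61 for Mxd1, and Mxi1 rose by 0.46. Myc differed by -0.20 (adjusted p = 0.2929) and Mycn by 0.027 (adjusted p = 0.6595).

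Of 24 p53 target genes tested, 16 rose and 3 fell, with a median of 0.35, and 12 rose and 0 fell with control scaling. The death receptor Eda2r read 7.34, 7.43 and 7.05 on the 3 arrays at 21 h and 8.65, 8.53 and 8.49 at 30 h. It rose by 1.29 (adjusted p = 3.85e-08), with no overlap. Sesn2, a stress-induced regulator of growth signalling, rose by 0.79, Trp53inp1 by 0.65, and Tigar fell by 0.71. Tigar averaged 4.32 at 21 h and 3.61 at 30 h, below the arrays' 60th percentile (5.20). Its other probe sets differed by 0.21 and -0.24 and were not called. Of the 21 BCL2 family and caspase genes tested, 10 rose and 1 fell (5 and 0 with control scaling). Bcl2l1, which encodes the survival protein BCL-XL, read 9.42, 9.24 and 9.39 on the 3 arrays at 21 h and 10.53, 10.39 and 10.51 at 30 h. It rose by 1.13 (SE 0.074, adjusted p = 1.04e-08) with the times apart, and its other 2 probe sets rose by 1.43 and 1.45. The death-promoting gene Bbc3 rose by 1.06 and Bmf by 0.56, while Casp2 fell by 0.47 and Bcl2 differed by 0.0036 (adjusted p = 0.9886). Survival and death genes rose side by side.

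Single genes of sugar use and of the response to low oxygen fell steeply, while their lists were mixed. Ldha, lactate dehydrogenase, read 11.58, 11.59 and 11.54 on the 3 arrays at 21 h and 10.19, 10.07 and 10.19 at 30 h. It fell by 1.42 (SE 0.050, adjusted p = 2.74e-11), clear of overlap, and Hk2, hexokinase, by 0.83. Of 28 glycolysis and pentose phosphate genes tested, 6 rose and 8 fell (4 and 2 with control scaling), against 18% higher and 22.5% lower over all genes. The aldolase Aldoc rose by 0.70. Among hypoxia response genes, 7 of 18 rose and 6 fell (4 and 4 with control scaling). The peptide hormone Adm rose by 0.64, from a mean of 3.21 at 21 h to 3.84 at 30 h. The arrays' 40th percentile lay between 3.27 and 3.35, so Adm was near background. Ankrd37 fell by 1.71, the growth factor Vegfa by 1.67, the kinase Pdk1 by 1.08 and Egln1, an oxygen sensor, by 0.75. Citric acid cycle enzymes gave 10 falls and 2 rises of 22 (1 and 1 with control scaling), with Idh3a at -0.72, Fh1 at -0.60 and Idh1, a cytosolic isocitrate dehydrogenase, at 0.59. Respiratory chain genes gave 15 falls and 2 rises of 51, with a median of -0.06 that became 0.13, with 0 calls, under control scaling.

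Cholesterol synthesis genes rose in 12 of 23 tested and fell in 2 (median 0.26, 9 and 0 with control scaling). The pathway enzymes Mvd, Cyp51, Msmo1 and Nsdhl rose by 0.52, 0.50, 0.50 and 0.49. The sterol exporter Abca1 rose by 0.92. Amino acid transporters gave 4 rises and 5 falls of 20 (5 and 1 with control scaling), near the shares of all genes, 18% higher and 22.5% lower. Slc1a4 stood at -0.94 and Slc7a1, an arginine carrier, at -0.62. In the integrated stress response list, 5 of 27 rose and 10 fell (2 and 3 with control scaling): the serine synthesis enzymes Psph and Psat1 fell by 1.01 and 0.96, Shmt2 by 0.86, and Nupr1 rose by 0.88. Chaperones gave 6 rises and 14 falls of 39 (5 and 1 with control scaling), with Dnajb9 at 0.81, Bag3 at 0.65, Hspa9, the mitochondrial HSP70, at -0.68 and Fkbp4 at -0.73.

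Genes of the progenitor state were mixed. Of 19 tested, 5 rose and 6 fell (5 and 4 with control scaling). Besides Myb, Lyl1 fell by 1.20, Gata2, the factor that GATA1 replaces on chromatin, by 1.03, and the receptor Kit by 0.78, whose other probe set differed by -0.38 without being called. Gata2 read 9.21, 9.29 and 9.16 on the 3 arrays at 21 h and 8.23, 8.14 and 8.21 at 30 h. Its times did not overlap, and at 0 h it had averaged 12.29. Fli1, an ETS factor, rose by 0.81.

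Of 30 cytokine receptor and feedback genes tested, 8 rose and 6 fell (5 and 2 with control scaling), against 18% higher and 22.5% lower over all genes. Cish, a feedback inhibitor that STAT5 induces, rose by 0.77 and Stat3 by 0.65, while the phosphatase Ptpn6 fell by 1.41 and the receptor Igf1r by 0.98. Igf1r averaged 4.63 at 21 h and 3.65 at 30 h, below the arrays' 60th percentile (5.20). Immediate early genes gave 9 rises and 2 falls of 19 (8 and 1 with control scaling). Zfp36, which speeds the decay of mRNAs with AU-rich elements, read 7.18, 7.02 and 6.91 on the 3 arrays at 21 h and 8.45, 8.36 and 8.42 at 30 h. It rose by 1.37 (adjusted p = 2.29e-07) with no overlap, Jun by 0.89 and Egr1 by 0.59. Interferon response genes gave 10 rises and 2 falls of 29 (7 and 0 with control scaling), with Parp14 at 1.15, Irf7 at 1.15 and Irf9 at 0.63.

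The cytoskeleton and nuclear envelope changed member by member. Of 34 tubulin and cytoskeletal genes tested, 10 rose and 6 fell (7 and 1 with control scaling). The tubulins Tuba1a and Tubb2b each rose by 1.36. Tuba1a read 9.996, 10.03 and 10.29 on the 3 arrays at 21 h and 11.49, 11.52 and 11.39 at 30 h, with no overlap. The neurofilament gene Nefh fell by 1.20. Lmnb1, lamin B1, read 10.27, 10.24 and 10.46 on the 3 arrays at 21 h and 9.01, 9.13 and 9.10 at 30 h. It fell by 1.25 while Lmna, lamin A and C, rose by 0.37. Of 27 chromatin genes tested, 3 rose and 13 fell, with a median of -0.15, and with control scaling 4 rose and 4 fell with a median of 0.04. The polycomb methyltransferase Ezh1 rose by 0.96 and its paralog Ezh2 fell by 0.35; the histone chaperone Asf1b fell by 0.82 and Hmgb3 by 1.07. The paraspeckle RNA Neat1 rose by 0.96.

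Pumps and channels of the red cell gave 4 rises and 2 falls of 17 tested (4 and 1 with control scaling). The ATP-gated channel P2rx4 rose by 1.13 beside P2rx7, the calcium pump Atp2b4 by 0.61, and the nucleoside carrier Slc29a1 fell by 1.33. Among 6 carbonic anhydrases tested, Car1 and Car3 fell, by 2.72 and 0.91, and Car13 rose by 0.78, counts that were the same with control scaling. Car3 averaged 5.17 at 21 h and 4.26 at 30 h, below the arrays' 60th percentile (5.20). A second Car3 probe set differed by -0.07 and was not called. Car2, the major red cell form, differed by 0.11 (adjusted p = 0.0872) at 13.15.

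Most markers of other blood cells were low. Of 10 granulocyte and macrophage markers on the array, 1, Cd68, reached the arrays' 60th percentile at 21 h or 30 h, as did 1 of 6 mast cell and basophil markers (Tpsb2), 2 of 5 megakaryocyte markers (Gp9 and Itga2b) and 0 of 7 lymphoid markers. Their summed log2 levels were 31.9 at 21 h and also 31.9 at 30 h for the granulocyte and macrophage markers, 18.7 and 18.6 for the mast cell and basophil markers, 22.5 and 22.0 for the megakaryocyte markers, and 17.7 and 18.2 for the lymphoid markers. Rises and falls of members can cancel in a sum of log2 values, so it does not measure the share of such cells. The filter on low values, which asked for 3 of 18 arrays, was passed by 4 of the 10 granulocyte and macrophage markers (Lyz2, Csf1r, S100a9 and Cd68 but not Mpo or Elane), 5 of the 6 mast cell and basophil markers (all but Fcer1a), 4 of the 5 megakaryocyte markers (all but Ppbp) and 2 of the 7 lymphoid markers (Cd79a and Pax5 but not Cd3e). In the wider megakaryocyte and platelet list, 3 of 8 tested rose and 1 fell (3 and 0 with control scaling): Itgb3 rose by 0.66, Tubb1 by 0.61 and Itga2b by 0.47, and Gp5 fell by 0.67. Tubb1, the tubulin of platelets and their precursors, had averaged 2.43 at 0 h and reached 10.62 at 30 h. In the mast cell list 2 of 9 tested rose and 1, Kit, fell, in the granulocyte and macrophage list 1 of 8, Cd68, fell, and in the lymphoid list 1 of 7, Ebf1, rose. With control scaling these lists gave 1 rise and 1 fall, 1 rise and 0 falls, and 0 calls. The part of these cells in the results was not tested.

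Set beside the interval from 14 h to 21 h, which shares the 21 h arrays, the last interval differed in the cell cycle genes. In the earlier interval 15.7% of genes tested were called higher and 17.5% lower. The difference between the intervals, tested for each gene in the same fit, was called higher for 7.22% of genes and lower for 9.10%. The interval from 21 h to 30 h is the longer one, and the changes were not divided by length. A change at a steady pace can therefore give a difference by itself. Control gaps between 3' and 5' probe sets also moved before 21 h. The 18S mean was -0.055 at 14 h and 0.632 at 21 h. Gapdh averaged 1.19 and then 1.52, and Tfrc 2.03 and then 2.43. The Actb mean went from 1.87 to 2.15, with overlapping ranges. At 30 h the means were 0.908 (18S), 1.52 (Gapdh), 2.41 (Tfrc) and 2.20 (Actb). The part of these shifts in the difference between the intervals was not tested. With control scaling the difference was called for 550 genes in place of 2076, and the earlier interval's change for 1778 in place of 4223. On the deposited scale the difference was called lower for 45 of 48 replication genes and 36 of 38 mitosis genes, but for 8 of 42 ribosome biogenesis genes. List counts of the difference with control scaling were not made. In the earlier interval 18 replication genes were called lower and 0 higher, and 11 mitosis genes were called higher and 4 lower. For ribosome biogenesis genes the earlier interval had 35 falls and 0 rises, and for autophagy genes 0 falls and 23 rises. Of the p53 targets, 5 rose and 4 fell in the earlier interval, and the difference was called higher for 7 of 24.

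Single genes changed direction at 21 h, and the plot of such genes over time shows 6 of each kind. Mt2, Slc7a8, Ak1, Cbfb, B3galt2 and Camk1d fell before 21 h and rose after it. Cbfb, a partner of RUNX factors, averaged 10.08 at 14 h, 9.19 at 21 h and 9.97 at 30 h. In the other direction went E2f2, Ptk6, Cdc25c, Ilkap, Pif1 and Zfp473. A second Ilkap probe set differed by -0.10 from 21 h to 30 h and was not called. Ak1 and Ptk6 averaged below the arrays' 60th percentile (5.20) at both 21 h and 30 h. Cdc25c, the phosphatase that activates CDK1 at entry into mitosis, averaged 8.66, 9.33 and 8.55 at the same times, and the DNA helicase Pif1 8.36, 8.95 and 7.91. The 2 intervals share the 21 h arrays and are not independent of each other. The part of the shift in control gaps between 14 h and 21 h in these turns was not tested.

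**Figure D5:**
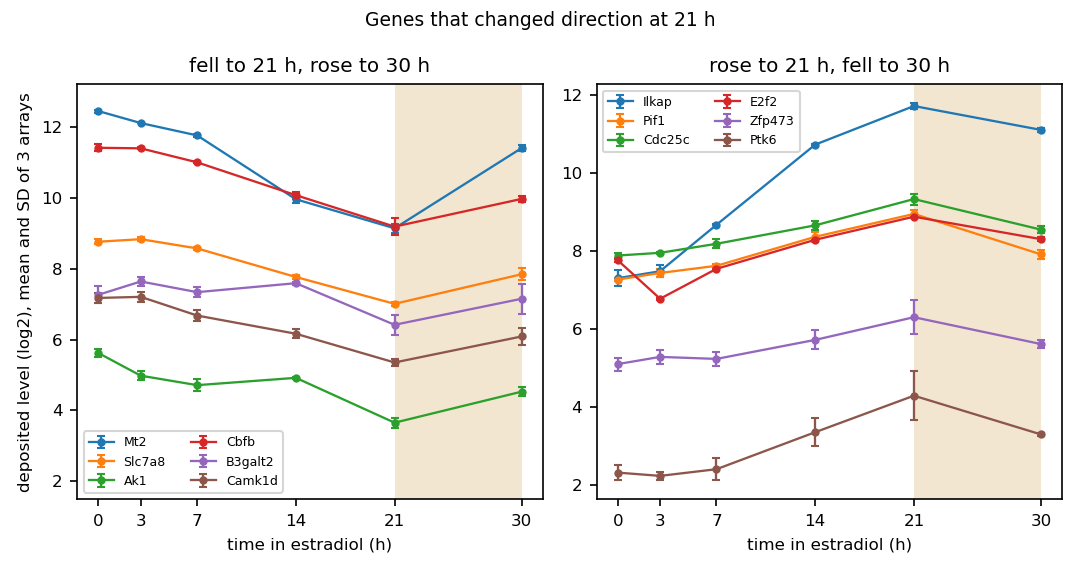
Deposited log2 level (vertical axis, mean and SD of 3 arrays) at each time in estradiol (h, horizontal axis) of 6 genes that fell to 21 h and then rose (left) and 6 that rose to 21 h and then fell (right), with the interval from 21 h to 30 h shaded. Mt2 drops to 9.14 at 21 h and returns to 11.4 at 30 h, and Ilkap, which had climbed to 11.7, drops to 11.1 on the probe set used. A second Ilkap probe set was not called from 21 h to 30 h.

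Of 252 genes named by the fixed rule, 128 had more than 1 tested probe set, and 0 of these had probe sets called in opposite directions. The number of arrays limits the precision. In simulated data with 200 of 12720 genes changed, 40% of 1.25-fold and 98% of 2-fold changes were recovered, so small differences can go uncalled. The data themselves gave 5150 calls, which makes the adjusted threshold less strict, so these rates need not hold for this comparison.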

How the data were processed

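RNA of G1E-ER4 cells was hybridised to 18 Affymetrix mouse arrays, 3 at each of 6 times. The authors deposited 1 log2 value per probe set and array, and array medians lie between 4.04 and 4.09. The sources used here do not say how these values were background-corrected, summarised and scaled, so that scaling cannot be told apart from a shift of most transcripts. RNA extraction with Trizol and biotin labelling are per the labels' protocols.

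Of 45101 probe sets, 34958 have 1 gene symbol, 932 several and 9211 none in the platform annotation. Each gene was taken as its probe set with the highest mean. Genes had to exceed the 40th percentile of the array in 3 or more of the 18 arrays to be tested. limma 3.58.1 (R 4.3.3; lmFit and eBayes) was fitted to all 18 arrays with a mean per time, the contrast 30 h minus 21 h was tested two-sided, and p-values were adjusted by Benjamini-Hochberg over 12720 genes. A gene was called at adjusted p under 0.05. The fit was tested on simulated data with 200 changed genes, which gave 6 calls among unchanged genes. The difference between intervals was a contrast of the same fit, and no 2 arrays held identical values.

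The genes named were the 12 largest rises and 12 largest falls among called genes whose times do not overlap and whose higher mean passed the 60th percentile, the 5 largest changes in every list (fewer in short lists), 8 late-onset genes and 6 turns each way, leaving out transcripts without a gene name. Other genes were named after their values were seen. The members, gene lists and motifs were chosen with earlier results of these data known. In RefSeq promoter windows (GRCm38.p6), 8 motifs were searched in 13 gene lists, matched by symbol. Alternatives in scaling, filter, probe set choice, arrays fitted, variance model, threshold, replicate number and arrays left out were run.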

Additional observations from a re-analysis of the deposited data

Results flagged for a closer look

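In 12 genes, picked as the 6 largest turns each way out of more, the change from 21 h to 30 h differed from the change from 14 h to 21 h and ran the opposite way, by limma's test of the difference itself with both changes called. The intervals share the 21 h arrays. Gaps between 3' and 5' control probe sets shifted between 14 h and 21 h, and their part in these turns was not tested. The difference (later change minus earlier change, log2) was 3.08 for the metallothionein Mt2, 2.14 for the adenylate kinase Ak1, 1.91 for the glycosyltransferase B3galt2, 1.67 for Cbfb, 1.59 for the amino acid carrier Slc7a8 and 1.54 for the kinase Camk1d. It was -1.93 for the kinase Ptk6, -1.62 for the helicase Pif1, -1.60 for the phosphatase Ilkap, -1.46 for Cdc25c, -1.27 for Zfp473 and -1.17 for E2f2. Because they were picked by size, their size is a description.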

How the results depend on the processing

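The number of arrays and the unknown scaling of the deposited values set the limits. Scaling to the hybridisation controls, which raised the median gene from 0.01 to 0.20, gave 1680 genes higher and 753 lower, and 196 higher and 174 lower by at least 2-fold. It gave calls for 809 of the fixed set of 2454 late-onset genes. It also gave 550 genes with a difference between the intervals and 1778 changed in the interval before. Under it 16 mitosis, 6 mitochondrial ribosomal and 13 nucleotide synthesis genes were called lower, and 12 lysosomal and 13 ubiquitin genes higher. It turned the median of the chromatin, ribosomal protein, respiratory chain, citric acid cycle, proteasome, chaperone, stress response, carbonic anhydrase, hypoxia, amino acid transporter and metallothionein lists positive, the last under quantile normalization too. Counting every probe set gave 4115 higher, 4902 lower, and 190 higher and 542 lower by at least 2-fold (732 in all), which counts probe sets and not genes. An adjusted p under 0.01 left 1060 genes with a difference between the intervals. Changes that reversed were not called there: Rpl27 (0.012 with control scaling), Cox7c (0.20 without probe sets of the _x_at and _s_at kinds) and Eif2b5 (0.012 as a mean of probe sets). Why the counts and signs moved was not tested.

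Leaving out each array in turn gave 1931 to 2232 genes higher, 2516 to 2931 lower, and 83 to 116 higher and 285 to 349 lower by at least 2-fold. Of the fixed set of 2454 late-onset genes, 1995 to 2152 were still called. A difference between the intervals was called for 1521 to 2048 genes. With a replicate block, 2255 genes were higher and 2812 lower. Same-numbered arrays of the 2 times deviated together with r of 0.188, 0.033 and -0.112, and differently numbered ones with r from -0.317 to 0.28. With 3 arrays per time, these values cannot decide whether the numbers pair the samples.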
